A study of Mus musculus with 9 samples.

Results

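Mitochondrial ribosomal proteins are described here as a set of 78 protein-coding genes, 49 with symbols starting with Mrpl and 29 with symbols starting with Mrps, out of 55401 genes in the count table. They were chosen by symbol and gene type in GENCODE mouse vM21, a rule that uses no measured value, although the set was taken up with earlier results of these data known. All 78 had the same coordinates and summed exon length in the count table as in that annotation. Counts were above the filter for low values in 75 members, and Mrpl53, Mrps10 and Mrps23 had 0 counts in all 9 libraries.

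The study asked which poly(A) RNAs carry N-4-acetylcytidine (ac4C), the acetylated form of cytidine that the enzyme NAT10 writes. Testes of wild-type (WT) male mice gave 3 libraries of input RNA before precipitation, 3 of RNA recovered with a control IgG and 3 of RNA recovered with an antibody to ac4C (acRIP). All groups came from oligo(dT)-selected RNA and Smart-seq2 libraries. The study's methods name ICR as its wild-type mice. The age of the animals, and whether libraries of a group came from separate animals or precipitations, were not given in the sources used here, so p-values measured only the spread between these libraries, which may be technical. An in vitro transcribed β-globin RNA with ac4C had been mixed into the RNA before precipitation. Input RNA was diluted to a fixed concentration, whereas the precipitated RNA was too scarce to quantify, so values are relative within a library and carry no absolute yield.

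Total counts were 22023925 to 31340090 in input, 14647542 to 18786779 in IgG and 16025779 to 18639134 in acRIP, and between 81.9% and 84.3% of low counts in a library were even. The spermatid marker list (Prm1, Prm2 and 5 others, 7 of 7 detected) summed to 26887 to 30762 FPKM in input, and the epididymis list (2 of 4 detected) to at most 2.76. The erythroid list of 7 genes summed to 184 to 189 FPKM in input, 248 to 267 in IgG and 892 to 1166 in acRIP. Most of that sum was the β-globin gene Hbb-bs, at 155 to 158 FPKM in input, 200 to 217 in IgG and 847 to 1116 in acRIP. The globin genes Hba-a1 and Hbb-bt were also higher in acRIP than in input, but their acRIP values overlapped IgG. Hba-a1 stood at 14.5 to 15.6 in input, 29.5 to 38.8 in IgG and 29.8 to 33.6 in acRIP. Hbb-bt stood at 5.19 to 7.13 in input, 10.3 to 13.6 in IgG and 13.3 to 15.1 in acRIP. Alas2, the haem synthesis enzyme of red cells, was lower, at 7.46 to 8.81 in input, 5.91 to 6.82 in IgG and 0.759 to 0.935 in acRIP. The part of these genes in the results below was not tested.

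The mitochondrial ribosome translates the few proteins that the mitochondrial genome encodes, all of them subunits of the oxidative phosphorylation complexes. Its proteins are encoded in the nucleus, made in the cytosol and imported, and assemble on ribosomal RNAs made in the organelle. Many descend from bacterial ribosomal proteins, and the others were added during the evolution of mitochondria. In testis, germ cells use oxidative phosphorylation and glycolysis to different degrees as they mature.

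The study derived a motif from ac4C peaks of mouse testis, which in DNA letters is CCNCAGNNC with a base other than G at the third and the eighth position and C or G at the seventh. It was searched on the transcript strand only. It occurred in the principal transcript of 21 of 78 members (26.9%) and of 44.3% of 10480 tested protein-coding genes with a mean of at least 100 counts, which had longer transcripts (median 2788 bases, against 1302 for the members). In all, 4 forms were searched. With any base at each N it occurred in 40 members (51.3%, against 69.7% of those genes), and as a shorter form without its first C in 54 (69.2%, against 76.6%). TCCCAGCT, a motif that comes from ac4C peaks of a human cell line, occurred in 6 (7.69%, against 12.6%). The form with any base was searched first and the cell line motif second. The motif with 9 letters, called the exact testis form here, was taken after the values of both had been seen. Of the 6 members highest and the 6 lowest in acRIP over IgG, 3 and 3 held the exact testis form. Occurrences in these members are shown so that both ends can be compared, with 10 bases on either side in lower case and the motif in capitals, read from GENCODE transcripts on mm10.
Mrps2, 3′ untranslated region, chr2:28470345-28470373, plus strand: cactgatgtcCCTCAGGACccccagtagt
Mrpl27, coding sequence, chr11:94656495-94656523, plus strand: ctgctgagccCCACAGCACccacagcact
Mrpl27, coding sequence, chr11:94656504-94656532, plus strand: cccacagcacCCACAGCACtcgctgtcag
Mrpl23, coding sequence, chr7:142535020-142535048, plus strand: actgggtggcCCCCAGCTCcgtgtatttc
Mrps31, coding sequence, chr8:22421364-22421392, plus strand: tagtacaaggCCACAGCACcagattcagt
Mrpl58, 3′ untranslated region, chr11:115412350-115412378, plus strand: tcctttcaagCCTCAGCCCtttcccagaa
Mrps12, coding sequence, chr7:28740207-28740235, minus strand: agccctcgctCCCCAGCTCtgggccgccc
Mrps12, coding sequence, chr7:28740019-28740047, minus strand: gccgagtccgCCTCAGCACaggcaaagag
A match is a description of the letters in a transcript and was not measured as a site of acetylation.

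As a group, the members took similar shares of the libraries in all 3 groups. They took 0.426% to 0.451% of the counts in input, 0.426% to 0.450% in IgG and 0.428% to 0.441% in acRIP, so the ranges overlapped. Per length, in FPKM (the count of a gene divided by its length and by the total of its library), the members summed to 2137 ± 79.7 in input, 2131 ± 69.1 in IgG and 2126 ± 41.8 in acRIP (SD, n = 3 each).

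**Figure D1:**
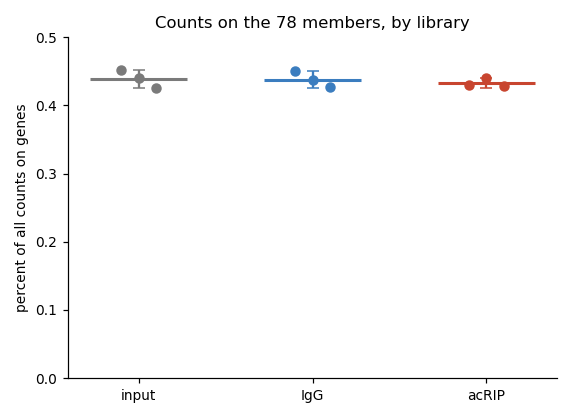
Percent of all counts on genes that fell on the 78 members, for each library (points), with the mean (horizontal line) and SD (vertical bar) of 3 libraries per group. The 9 libraries lie between 0.426% and 0.451% and the groups overlap.

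In input, the level of members ran from 0.145 to 320 FPKM, with a median of 17.1 over the 75 members that had counts. Members of the Mrpl series had a median of 18.5 FPKM and those of the Mrps series 12.9. The highest were Mrpl54, a protein without a bacterial homologue, at 320 ± 23.8 FPKM (SD, n = 3), Mrpl20, the homologue of bacterial L20, at 174 ± 5.76, and Mrpl39 at 104 ± 3.40. Mrpl55, Mrpl41 and Mrpl12 followed at 96.5 ± 3.51, 90.7 ± 6.04 and 64.2 ± 4.66 FPKM. Mrpl55 and Mrpl41 differed by less than the SD of Mrpl41, whereas the other neighbours in this order were further apart than either SD. The order depends on the length used. Other values used the length of the principal transcript in place of the merged exons, and library sizes scaled by TMM normalization in place of totals. By these, Mrpl54 (427 FPKM), Mrpl20 (369) and Mrpl39 (112) still led, followed by Mrpl30 (104), Mrpl55 (103) and Mrpl41 (101), while Mrpl12 stood at 72.9. In bulk tissue, fewer cells of a type and less RNA per cell cannot be told apart.

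**Figure D2:**
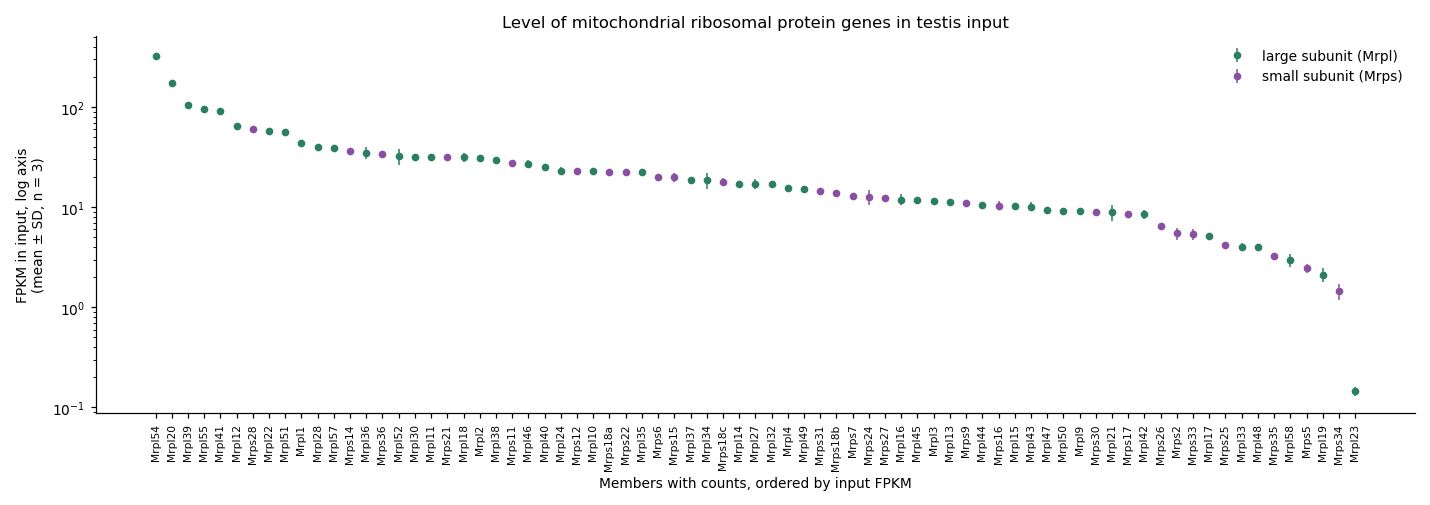
FPKM in input (vertical axis, log scale) of the 75 members with counts, ordered from high to low, as mean ± SD of 3 libraries, with large-subunit symbols (Mrpl) in green and small-subunit symbols (Mrps) in purple. Mrpl54 stands at 320 and Mrpl20 at 174, most members lie near the median of 17.1, and Mrpl23 is lowest at 0.145.

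The members with the lowest counts shared sequence with other genes or with other scaffolds of the genome assembly. Mrpl23 had 6 to 42 counts per library, and 540 of the 692 bases of its transcript were identical at a place on chromosome 2, where the pseudogene Mrpl23-ps1 took 90 to 239 counts. Mrps34 had 26 to 81 counts, and 63.4% of its exon bases overlapped Mapk8ip3 on the other strand and 37.0% Nme3 on its own strand. For Mrpl53, 88.0% of the exon bases lay inside Gm42688, a gene on the same strand. The whole transcripts of Mrps10 and Mrps23 were repeated without a mismatch on patch scaffolds of the genome assembly, and whether the authors' index held these scaffolds is not given in the sources used here. Whole transcripts of 5 members had an identical second place, and 2 of these members, Mrps10 and Mrps23, had 0 counts. Mrpl22, Mrpl40 and Mrps18b, with such copies on scaffolds of other mouse strains, had means of 1412, 1133 and 725 counts in input. Whether 0 counts for Mrpl53, Mrps10 and Mrps23 measure their RNA cannot be told here. The part of the shared sequence in the low counts was not tested. In all, 28 members had a copy of at least 95% identity or shared over 10% of their exon bases with another gene, and 50 had neither. Those with a copy were Mrpl21, Mrpl22, Mrpl23, Mrpl27, Mrpl30, Mrpl42, Mrps10, Mrps18b, Mrps21, Mrps23, Mrps25, Mrps33 and Mrps36. Those with an overlap were Mrpl10, Mrpl12, Mrpl14, Mrpl18, Mrpl19, Mrpl24, Mrpl43, Mrpl46, Mrpl47, Mrpl53, Mrps6, Mrps18b, Mrps18c, Mrps24, Mrps25, Mrps27 and Mrps34.

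The first question was which members the ac4C antibody recovered above the control IgG. Of 75 members tested, 26 were higher in acRIP and 18 lower at an adjusted p under 0.05 (edgeR's quasi-likelihood test, Benjamini-Hochberg over all 22510 genes tested), where 26.4% of all genes tested were higher and 37.6% lower. Few changes were large. A fold change over 2 was reached by 2 members upward and 2 downward, against 11.5% and 20.9% of all genes tested, and against 4.05% and 8.35% of the protein-coding genes with a mean of at least 100 counts. The median log2 fold change was 0.01 for the members (−0.04 when libraries were scaled by their totals alone), −0.06 for those protein-coding genes and −0.09 for all genes tested, and the interquartile range was 0.46 for the members against 0.66 and 1.20. In 56 of 75 members (74.7%), and in 66.3% of the protein-coding genes, the change was under 0.5 on the log2 scale in either direction.

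The member with the highest ratio was Mrps2, the homologue of bacterial S2 in the small subunit. Its normalised read counts (CPM, counts scaled by the library size after TMM normalization) were 11.5, 7.68 and 9.95 in IgG, 15.7, 13.5 and 17.8 in input, and 24.5, 27.7 and 25.4 in acRIP. Every acRIP library lay above every library of the other groups, and IgG lay below input. The log2 fold change over IgG was 1.42 (SE 0.14, edgeR adjusted p = 6.74e-10), that over input was 0.73 (SE 0.13, edgeR adjusted p = 1.5e-05), and IgG over input was −0.69 (SE 0.14, edgeR adjusted p = 0.000125), so the ratio over IgG was set against a level below input. Mrpl27, homologue of bacterial L27 near the peptidyl transferase centre, had 14.8, 13.9 and 13.6 CPM in IgG, 17.7, 14.3 and 17.2 in input and 30.8, 28.3 and 29.4 in acRIP. The acRIP libraries of Mrpl27 were above all others while IgG and input overlapped, with a log2 fold change of 1.07 over IgG (SE 0.12, edgeR adjusted p = 3.86e-09). Transcripts of Mrpl27 have copies of up to 97.9% identity elsewhere in the genome.

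Mrps33, a protein particular to mitochondria, had 8.29, 7.53 and 7.53 CPM in IgG, 10.1, 8.14 and 7.98 in input and 15.1, 15.6 and 15.0 in acRIP. Mrps24, homologue of bacterial S3, had 20.7, 21.4 and 21.9 CPM in IgG, 19.7, 19.96 and 14.4 in input and 41.7, 39.8 and 33.6 in acRIP. The acRIP libraries of both genes stood above the other 6 without overlap, with log2 fold changes over IgG of 0.98 and 0.84. Parts of the Mrps33 transcript have copies of up to 99.8% identity elsewhere in the genome. Mrpl14, homologue of bacterial L14, rose by 0.54 over IgG (SE 0.11, edgeR adjusted p = 0.000134), from 15.7 to 17.6 CPM in IgG to 23.6 to 25.4 in acRIP. Mrpl23 had a ratio of 0.97 on the same scale that did not pass (edgeR adjusted p = 0.113). Its CPM were 0.408, 0.848 and 0.968 in IgG and 1.03, 2.35 and 1.04 in acRIP, and without acRIP replicate 2 the ratio was 0.46.

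At the other end, Mrpl42, a large-subunit protein, had 32.7, 32.4 and 34.3 CPM in IgG, 33.4, 31.4 and 27.2 in input and 16.6, 17.5 and 14.7 in acRIP. Its log2 fold change over IgG was −1.02 (SE 0.11, edgeR adjusted p = 1.35e-09), and every acRIP library was below every other library. The Mrpl42 transcript has copies of up to 95.9% identity elsewhere in the genome. Mrps31, a small-subunit protein particular to mitochondria, had 45.2, 41.0 and 32.9 CPM in IgG, 46.6, 46.3 and 45.6 in input and 22.1, 20.3 and 16.6 in acRIP, a log2 fold change of −1.01 over IgG (SE 0.11, edgeR adjusted p = 2.67e-09). Both lay at the limit of a 2-fold change, and without acRIP replicate 3 neither reached it. Without IgG replicate 1 Mrpl42 had −1.04 and Mrps31 −0.91.

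Mrpl58, which releases peptides from stalled ribosomes and is built into the large subunit, had 12.5, 10.8 and 11.5 CPM in IgG and 5.02, 6.93 and 5.73 in acRIP (log2 fold change −0.97, SE 0.18, edgeR adjusted p = 2.59e-05). Mrpl50 had 13.8, 12.5 and 13.8 CPM in IgG and 7.47, 7.21 and 6.09 in acRIP, a log2 fold change of −0.94. Mrpl3, homologue of bacterial L3, had 63.4, 67.8 and 64.3 CPM in IgG and 30.5, 38.7 and 39.3 in acRIP, a log2 fold change of −0.85. None of these groups overlapped. Mrps12, the decoding-centre protein homologous to bacterial S12, fell by 0.76 over IgG (SE 0.10, edgeR adjusted p = 2.75e-07), but its IgG level of 29.4 to 36.0 CPM was itself above the input level of 23.3 to 23.8, and acRIP lay at 17.8 to 20.4.

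**Figure D3:**
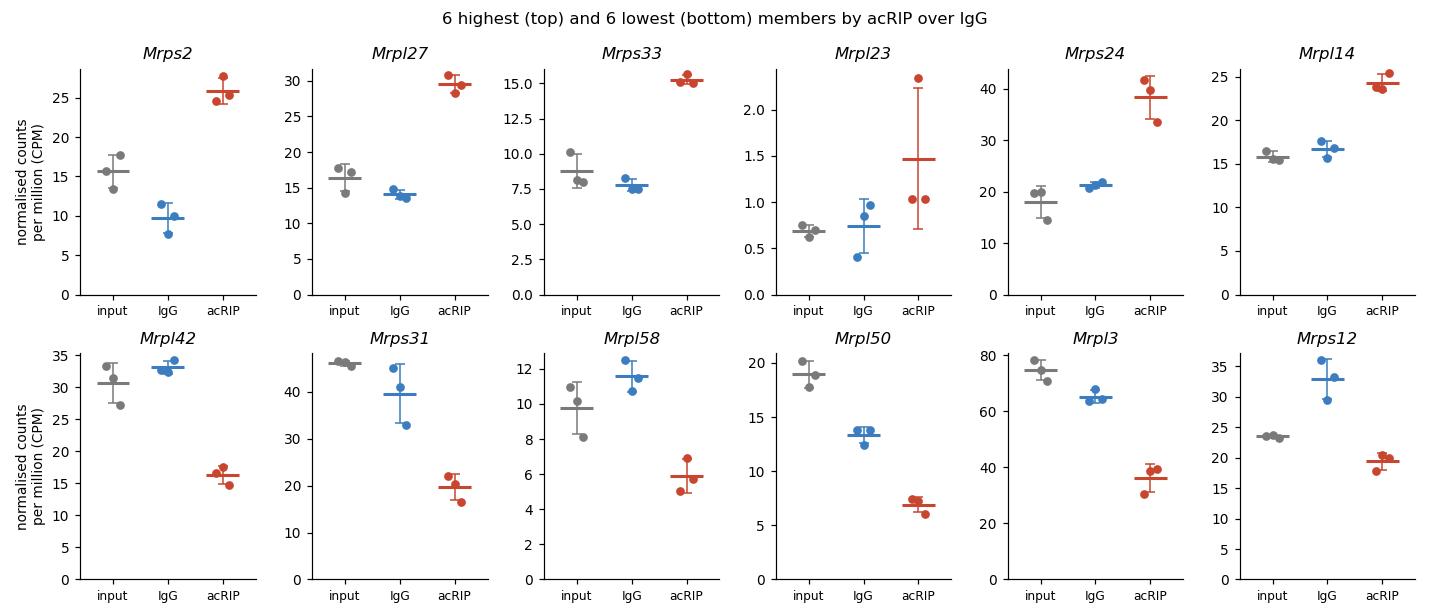
Normalised read counts (CPM, vertical axis, from 0) in each input, IgG and acRIP library for the 6 highest (top) and 6 lowest (bottom) members by their ratio of acRIP over IgG. Points are libraries, horizontal lines are means and vertical bars are SDs of 3 libraries. In all panels except Mrpl23 the acRIP points form a group clearly apart from IgG, and in Mrpl23 one acRIP library stands at 2.35 while the other two are at 1.03 and 1.04.

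The second question was how the RNA recovered with the ac4C antibody compared with the RNA before precipitation. Of 75 members tested, 33 were higher in acRIP than in input and 22 lower (edgeR, adjusted p under 0.05), where 32.0% of all genes tested were higher and 40.3% lower. A fold change over 2 was reached by 2 members upward and 3 downward, against 17.7% and 22.9% of all genes tested, and against 13.2% and 11.8% of the protein-coding genes with a mean of at least 100 counts. The median log2 fold change was 0.13 for the members, −0.06 for the protein-coding genes with a mean of at least 100 counts and −0.10 for all genes tested, and 70.7% of the members and 47.0% of those protein-coding genes moved by under 0.5.

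Mrps24 had the highest ratio that passed, 1.08 on the log2 scale (SE 0.11, edgeR adjusted p = 5.29e-10). Mrpl47, homologue of bacterial L29 at the exit of the peptide tunnel, had 40.3, 41.8 and 39.8 CPM in input, 75.9, 64.7 and 72.2 in IgG and 83.2, 86.0 and 75.8 in acRIP. Its log2 fold change over input was 1.01 in acRIP (SE 0.07, edgeR adjusted p = 4.55e-14) and 0.80 in IgG (SE 0.07, edgeR adjusted p = 2.01e-11), so most of the rise over input was also present with the control IgG. Mrpl19, homologue of bacterial L19, had 9.32, 11.95 and 12.6 CPM in input, 13.7, 16.3 and 16.8 in IgG and 24.5, 21.2 and 18.6 in acRIP, and stood in that order with no overlap between groups (0.93 over input, 0.45 over IgG). Over 10% of the exon bases of Mrps24, Mrpl47 and Mrpl19 are shared with another gene, and the strand setting of the counting is not stated, so reads from the neighbours cannot be told apart from theirs. Mrpl23 had 1.09 over input and did not pass (edgeR adjusted p = 0.063). Mrpl27 and Mrps33 rose by 0.84 and 0.80.

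The lowest ratio over input belonged to Mrpl50, at 20.2, 17.8 and 18.9 CPM in input, 13.8, 12.5 and 13.8 in IgG and 7.47, 7.21 and 6.09 in acRIP. Its log2 fold change was −1.45 in acRIP (SE 0.14, edgeR adjusted p = 1.51e-10) and −0.51 in IgG (SE 0.13, edgeR adjusted p = 0.00197), and the 3 groups stood in separate steps. Mrps31 and Mrpl3 followed at −1.23 (SE 0.11, edgeR adjusted p = 6.55e-12) and −1.04 (SE 0.08, edgeR adjusted p = 2.95e-13). Mrpl42, Mrpl49 and Mrpl58 fell by 0.91, 0.75 and 0.73.

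**Figure D4:**
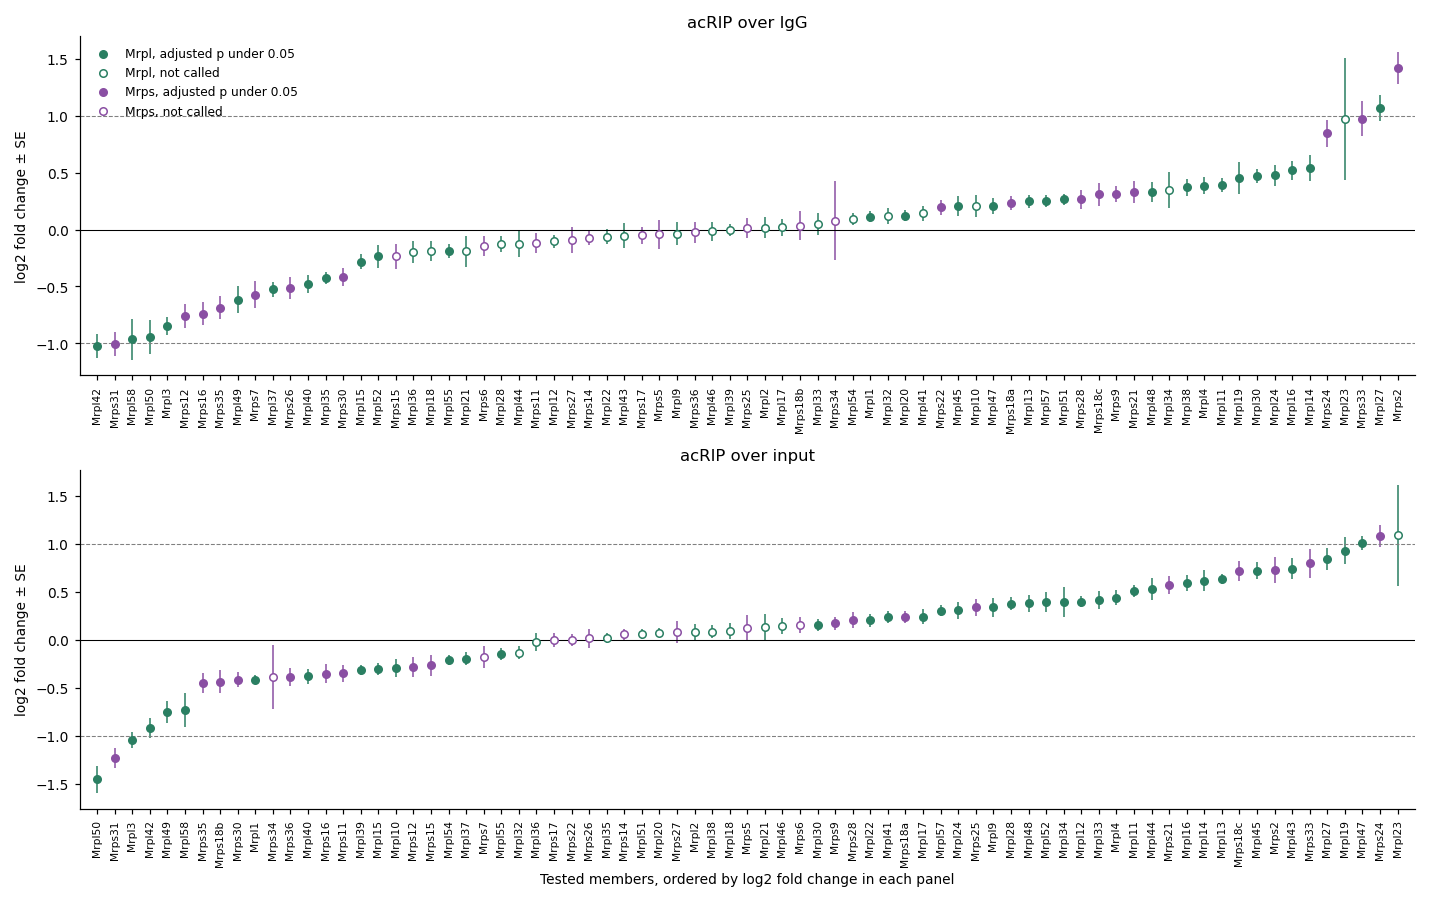
Log2 fold change (vertical axis) with SE for each of the 75 tested members, ordered in each panel, for acRIP over IgG (top) and acRIP over input (bottom). Filled points had an adjusted p under 0.05, open points did not, green is Mrpl, purple is Mrps, and dashed lines mark a 2-fold change. Most members lie between the dashed lines, from Mrpl42 at −1.02 to Mrps2 at 1.42 in the top panel and from Mrpl50 at −1.45 to Mrpl23 at 1.09 in the bottom panel.

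Recovery with the control IgG alone also moved members against input. Of 75 members tested, 25 were higher in IgG than in input and 15 lower (edgeR, adjusted p under 0.05), where 25.9% of all genes tested were higher and 26.0% lower. No member had a 2-fold change at any p, the ratios running from −0.69 for Mrps2 to 0.80 for Mrpl47, whereas 13.5% of all genes tested were more than 2-fold higher and 7.22% lower. Mrpl43 rose by 0.80 (SE 0.11, edgeR adjusted p = 3.73e-07), from 13.9, 16.7 and 14.4 CPM in input to 26.4, 23.6 and 28.2 in IgG, and was at 23.6, 26.9 and 24.7 in acRIP, overlapping IgG. Mrpl44, Mrpl52, Mrps26 and Mrpl45 rose by 0.66, 0.63, 0.53 and 0.51. Mrpl1, homologue of the bacterial L1 stalk protein, fell by 0.52 (SE 0.05, edgeR adjusted p = 2.59e-11), from 178 to 185 CPM in input to 126 to 128 in IgG, and was at 134 to 140 in acRIP. Mrpl50 and Mrpl10 fell by 0.51 and 0.50 and Mrps18b by 0.47, whereas Mrps34 had −0.47 and did not pass (SE 0.33, edgeR adjusted p = 0.246).

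**Figure D5:**
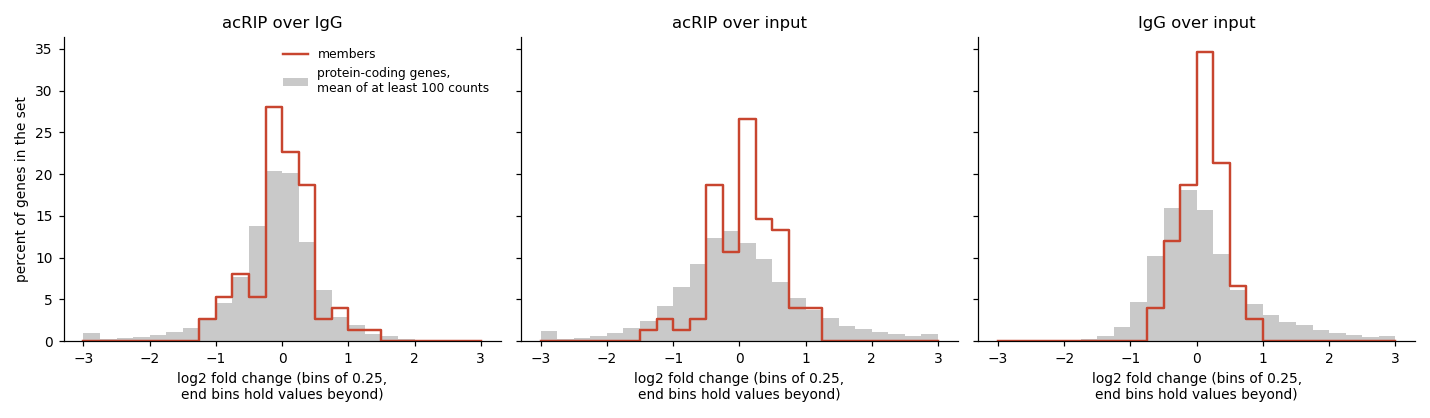
Percent of genes (vertical axis) in bins of 0.25 log2 fold change (horizontal axis) for the tested members (red line) and for 10480 tested protein-coding genes with a mean of at least 100 counts (grey bars), in the 3 comparisons, with values beyond ±3 in the end bins. The members are gathered in the middle, with no value beyond −1.45 or 1.42 in any panel, while the grey bars extend further to at least one side in each panel.

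Since both comparisons share the acRIP libraries, a member was also counted only where it passed in the same direction against IgG and against input. That held for 21 of 75 members upward and 14 downward, where 18.2% of all genes tested were higher against both and 29.0% lower. With a fold change over 2 in both, no member was higher (7.88% of all genes tested) and 1 was lower, Mrps31 (17.0% of all genes tested). Among the protein-coding genes with a mean of at least 100 counts these shares were 2.28% and 5.97%. The call of Mrps31 was lost without IgG replicate 1, IgG replicate 2 or acRIP replicate 3, and with DESeq2. At any p, no member was more than 2-fold higher in both, and DESeq2 also called none.

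By subunit, 13 of 48 tested Mrpl members were higher against both groups and 9 lower, and 8 of 27 tested Mrps members were higher and 5 lower. Over all genes tested, 18.2% were higher against both and 29.0% lower. Members with copies or overlaps, named above, are among those counted, mostly on the high side, and their part was not tested. The median log2 fold change of Mrpl lay 0.08 above that of Mrps over IgG and 0.17 above it over input. Symbols do not follow the structure throughout, since the proteins of Mrps30 and Mrps18a sit in the large subunit. Mrps30 fell by 0.42 against both IgG (SE 0.08, edgeR adjusted p = 2.93e-05) and input (SE 0.08, edgeR adjusted p = 1.73e-05), at 39.4 to 48.6 CPM in acRIP against 54.3 to 61.3 in IgG and 56.5 to 59.9 in input.

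By origin, members with a bacterial homologue were higher against both groups in 17 and lower in 5 of 47 tested, while members without one were higher in 4 and lower in 9 of 28. The median log2 fold change of the homologues lay 0.09 above that of the others over IgG and 0.16 above it over input. Over all genes tested, 18.2% were higher against both and 29.0% lower. Homologues on the high side included Mrps2, Mrpl27, Mrps24 and Mrpl14, and those on the low side Mrpl3 and Mrps12. Of the members without a homologue, Mrps33 and Mrpl45 were higher against both, and Mrpl42, Mrps31, Mrpl50 and Mrpl58 were lower. Of the homologues higher against both, Mrpl14, Mrpl19, Mrpl24, Mrpl47, Mrps18c and Mrps24 share over 10% of their exon bases with another gene. Mrpl27, Mrpl30 and Mrps21 have copies of at least 95% identity, and no homologue lower against both has either. Among the members without a homologue, Mrps33 and Mrpl42 have such copies. The part of the shared sequence in these counts was not tested. The lists of homologues were chosen with earlier results of these data known, and the difference between the lists was not tested.

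In the stalk region, where translation factors dock, the 3 members behaved differently. Mrpl11 had 115, 103 and 111 CPM in IgG, 108, 102 and 92.3 in input and 133, 156 and 142 in acRIP, higher than all other libraries (0.39 over IgG, SE 0.06, edgeR adjusted p = 2.91e-06, and 0.51 over input, SE 0.06, edgeR adjusted p = 1.16e-08). Mrpl12, which also binds the mitochondrial RNA polymerase, rose over input in IgG (0.50) and in acRIP (0.40), and its −0.10 of acRIP over IgG did not pass (SE 0.06, edgeR adjusted p = 0.119). Mrpl10, the anchor of the stalk, fell against input in both (by 0.50 and 0.29), and its 0.21 over IgG did not pass (SE 0.10, edgeR adjusted p = 0.0585).

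At the exit of the peptide tunnel, 3 of 5 members were higher over IgG and none lower, and 4 were higher over input. Among all genes tested, 26.4% were higher and 37.6% lower over IgG, and 32.0% were higher over input. Mrpl22 and Mrpl23 have copies of at least 95% identity, and Mrpl24 and Mrpl47 share over 10% of their exon bases with another gene. The part of these reads in the values was not tested. Mrpl24 had 53.3, 44.0 and 39.7 CPM in IgG, 56.5, 49.3 and 47.6 in input and 62.4, 69.0 and 58.4 in acRIP, above all others (0.48 over IgG, SE 0.09, edgeR adjusted p = 3.11e-05). Mrpl45, which helps to hold the ribosome at the inner membrane, rose by 0.72 over input and 0.21 over IgG, with acRIP at 44.0 to 54.5 CPM and IgG at 39.5 to 45.0 overlapping. Mrpl47 likewise overlapped between acRIP and IgG (0.21, SE 0.07, edgeR adjusted p = 0.011). Mrpl22 rose by 0.20 over input and had −0.06 over IgG (SE 0.07, edgeR adjusted p = 0.432).

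Mammals have 3 homologues of bacterial S18. Mrps18a and Mrps18c were higher against both groups, by 0.23 and 0.31 over IgG and by 0.24 and 0.72 over input. Being higher against both held for 18.2% of all genes tested. Mrps18b and Mrps18c share over 10% of their exon bases with another gene, and Mrps18b also has copies of at least 95% identity. The part of the shared sequence in these values was not tested. Mrps18b had 0.03 over IgG (SE 0.12, edgeR adjusted p = 0.824) and fell by 0.44 over input (SE 0.12, edgeR adjusted p = 0.00165), with 20.9, 17.6 and 23.6 CPM in acRIP, 23.4, 17.4 and 19.9 in IgG and 29.6, 28.9 and 25.3 in input.

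The 21 members with the exact testis motif had log2 fold changes over IgG from −1.01 to 1.42, 7 higher and 7 lower at an adjusted p under 0.05, and thus covered nearly the range of all members. Among all genes tested, 26.4% were higher and 37.6% lower. The median of the 21 members was −0.04, against 0.03 for the 54 tested members without the motif, and over input the medians were 0.13 and 0.11. Over IgG, members with and without the motif had medians of −0.04 and 0.06 with any base at each N, −0.04 and 0.10 without the first C, and −0.19 and 0.02 for the cell line motif. Across the 75 tested members, Spearman's rho between the log2 fold change and transcript length was −0.18 over IgG and −0.18 over input, and with GC content 0.09 and 0.16. These are descriptions across genes, which share libraries and are not independent replicates.

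Of 5 mitochondrial ribosome proteins known by other names, 2 were higher and 2 lower over IgG. Among all genes tested, 26.4% were higher and 37.6% lower. Ptcd3, a pentatricopeptide repeat protein of the small subunit, had 31.0, 37.9 and 34.2 CPM in IgG, 51.1, 48.7 and 54.6 in input and 5.601, 8.82 and 9.81 in acRIP. Its log2 fold change of −2.09 over IgG (SE 0.13, edgeR adjusted p = 2.65e-14) lay beyond that of every member. Dap3, a GTP-binding protein of the small subunit, fell by 0.14 over IgG (SE 0.04, edgeR adjusted p = 0.0052). Chchd1 and Gadd45gip1 rose by 0.50 and 0.83, and Aurkaip1 had −0.12 and did not pass (edgeR adjusted p = 0.0578).

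Factors that build the mitochondrial ribosome were found on both sides. Of 26 assembly factors tested of 27, 10 were higher over IgG and 9 lower, and 3 and 5 of them passed a 2-fold change, where 26.4% and 37.6% of all genes tested passed, and 11.5% and 20.9% with a 2-fold change. Their interquartile range was 1.25 on the log2 scale, against 0.46 for the members and 1.20 for all genes tested. Ybey, an endoribonuclease of ribosomal RNA processing, had 3.06, 2.33 and 2.04 CPM in IgG and 6.31, 6.48 and 6.58 in acRIP (1.39, SE 0.25, edgeR adjusted p = 1.87e-05), and Mettl17 rose by 1.34 (SE 0.14, edgeR adjusted p = 2.5e-09). Noa1, a GTPase, fell by 2.37 (SE 0.25, edgeR adjusted p = 1.47e-09), from 7.47 to 10.8 CPM in IgG to 0.975 to 2.35 in acRIP. Mettl15, a methyltransferase of the small ribosomal RNA, had 3.40, 3.07 and 4.41 CPM in IgG and 0 counts in all acRIP libraries, at least 20.03-fold lower when 3 counts per library are taken as the limit and at least 10.02-fold with 6 counts, the number that 3 read pairs give if both mates were counted. Over input, Ddx28 and Nsun4 rose by 1.22 and 1.11.

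Of 15 translation factors of mitochondria tested (of 16), 1 was higher over IgG and 8 lower, and 1 was higher and 10 lower over input. Over all genes tested, 26.4% were higher and 37.6% lower over IgG, and 32.0% and 40.3% over input, and the difference from these shares was not tested. Tsfm, the elongation factor that recharges Tufm, had 15.1, 13.9 and 11.7 CPM in IgG, 7.32, 9.07 and 7.54 in input and 3.48, 3.69 and 4.995 in acRIP, a fall of 1.74 over IgG (SE 0.19, edgeR adjusted p = 4.11e-09). Tufm itself fell by 0.67 over IgG and had 0.11 over input (edgeR adjusted p = 0.417). Mtrf1, a release factor, had 9.31, 7.58 and 11.1 CPM in IgG and 0 counts in all acRIP libraries, at least 51.5-fold lower on the limit of 3 counts per library and at least 25.7-fold on 6. Gfm2 was the factor that rose over IgG (0.43, SE 0.16, edgeR adjusted p = 0.0243), and it fell by 0.67 over input. Mtrf1l had 0.61 over IgG and did not pass (edgeR adjusted p = 0.191) but rose by 1.40 over input, and Rmnd1 fell by 1.23 over input.

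Cytosolic ribosomal protein genes gave a point of reference. Of 80 tested, 35 were higher over IgG and 14 lower, where 26.4% of all genes tested were higher and 37.6% lower. Over input, 15 of the 80 (18.8%) were more than 2-fold higher, a share near the 17.7% of all genes tested, whereas 2 of the 75 members were. Their median log2 fold change was 0.20 over IgG and 0.54 over input, and 0.37 already for IgG over input, where the members had 0.09 (−0.01 with upper quartile normalization). Nuclear genes of oxidative phosphorylation lay between, at 0.08, 0.29 and 0.18. The differences between these lists were not tested.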

How the data were processed

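The authors deposited counts of reads per gene for 9 mouse testis libraries, with no normalization. Per the labels, reads were trimmed with Trim Galore 0.6.7, mapped to mm10 with STAR 2.7.10a and counted with featureCounts 2.0.2. Which annotation was used, the handling of strand and the counting of single mates or pairs are not given in the sources used here. The members and gene lists were chosen with earlier results of these data known.

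Counts were tested with edgeR 4.0.16 in R 4.3.3 (filterByExpr, TMM, quasi-likelihood test, all 9 libraries in a single fit with 3 group means, Benjamini-Hochberg over 22510 genes). SE is the absolute log2 fold change over the square root of F. Named members were the 6 highest and 6 lowest in each comparison, the extremes of input level, members called against both groups with a fold over 2, those of the stalk, tunnel exit and S18 lists with Mrps30, and members that failed the filter. Of the assembly and translation factors the 2 highest and 2 lowest over IgG and over input were named. Copies were sought with minimap2 2.31. The scripts were tested on simulated data. DESeq2 1.42.0 and limma 3.58.1 served as alternatives. A count of 0 was bounded by 3 counts, which covers counting error only. The marker lists of Sertoli, Leydig, peritubular, macrophage and spermatocyte cells were detected in 5 of 6, 5 of 5, 4 of 4, 5 of 5 and 7 of 7 genes. Not every occurrence of the searched motif is reported here.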

Additional observations from a re-analysis of the deposited data

How the results depend on the processing

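Calls at an adjusted p under 0.05 stayed within 1.5 times their number under DESeq2, other normalizations, filters, the 6 libraries compared alone, halved counts and limma. With the 28 members that share sequence left out (chosen after seeing the data), 50 members remained. Of these, 16 were higher and 17 lower over IgG, where 26.4% and 37.6% of all genes tested were. Over input, 19 were higher and 18 lower, where 32.0% and 40.3% of all genes tested were. For IgG over input 14 were higher (25.9% of all genes tested), and 11 were higher over both (18.2%). The median log2 fold change minus that of protein-coding genes was then 0.0162 over IgG and 0.10 over input, against 0.07 and 0.18 with all members.

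Counts past a 2-fold change rest on members near that limit. Those lower over IgG numbered 1 with DESeq2, with RLE size factors and without shared sequence, and 0 with upper quartile normalization, no filter, the 6 libraries of the comparison, glmTreat at a fold of 2 and limma on log2(FPKM + 1). Those higher over IgG numbered 1 with glmTreat, limma on log2(FPKM + 1) and without shared sequence. Those higher over input numbered 1 with upper quartile normalization, library totals and limma on log2(FPKM + 0.1), and 0 with glmTreat, limma on log2(FPKM + 1) and without shared sequence. The member lower over both was lost (0) with DESeq2, RLE, upper quartile, no filter, glmTreat and limma on log2(FPKM + 1). The cause was not tested.

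Leaving out each library in turn gave 0 to 3 members more than 2-fold lower over IgG (0 without acRIP replicate 3, 1 without IgG replicate 1), 1 to 4 higher over input (1 without acRIP replicate 2, 4 without acRIP replicate 3), 2 to 3 higher over IgG, 2 to 3 lower over input and 0 to 1 lower over both (0 without IgG replicate 1, IgG replicate 2 or acRIP replicate 3). At an adjusted p under 0.05 the ranges were 23 to 28 higher and 16 to 23 lower over IgG, 30 to 34 and 19 to 22 over input, 22 to 27 and 12 to 16 for IgG over input, and 17 to 22 and 13 to 16 over both. The median minus that of protein-coding genes ranged from 0.0386 to 0.0827 over IgG, 0.11 to 0.23 over input and 0.08 to 0.17 for IgG over input.

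Summed FPKM was 3430, 3435 and 3444 in input, IgG and acRIP with the length of the principal transcript. With the TMM-scaled library size it was 2086, 2124 and 2193, so the order of the group means depended on these choices. The members' median over IgG was 0.04 with RLE, 0.06 with upper quartile and −0.04 with library totals, so its sign depended on scaling, while its distance to all genes tested stayed at 0.10. Medians were set against protein-coding genes, and subsets against each other, after this dependence had been seen. Of the 21 settings, glmTreat was not used for the 36 named results, and Mrpl23 had no value where its counts failed the filter. In the remaining comparisons no direction reversed, and Mrpl23 over input passed in 4 settings (edgeR adjusted p from 0.0357 to 0.0482).

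No pairing of libraries by replicate number was seen: same-numbered libraries of different groups deviated with correlations from −0.0082 to 0.0486. Not every library correlated best with its own number. Such low correlations over all genes tested cannot exclude a shared source, and the pairing is not given in the sources used here. With the replicate number as a block, 27 members were higher and 20 lower over IgG, 33 and 23 over input, 26 and 16 for IgG over input, and 22 and 14 over both.

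Depth limits Mrpl23 and Mrps34, with 6 to 42 and 26 to 81 counts per library.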
